A study of Mus musculus with 2 samples.

Results

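Blood endothelial cells, which line the arteries, capillaries and veins of the ovary, were taken from 2 libraries of single ovarian cells, 1 of Control mice and 1 of mice dosed with polystyrene microplastics (PS-MP). A cell was counted as a member when at least 4 of 6 endothelial mRNAs were detected in it (Cldn5, Kdr, Flt1, Pecam1, Tie1 and Cdh5, at least 1 UMI each). It also had to hold less than 5000 CPM (UMIs of a gene scaled to 1000000 UMIs of the cell) of Inha, the inhibin subunit of granulosa cells, and at most 2 of 6 lymphatic mRNAs (Prox1, Lyve1, Flt4, Mmrn1, Ccl21a and Reln). A UMI is a molecular identifier, so each UMI counts 1 captured mRNA molecule. The rule selected 355 of 14853 Control cells and 307 of 14770 PS-MP cells that passed the filters, 662 of 29623 in all. All 6 endothelial mRNAs were detected in 285 Control and 237 PS-MP members, 5 in 58 and 58, and 4 in 12 and 12. Of the cells with at least 4 of them, 31 Control and 32 PS-MP cells were left out for Inha, and 11 and 4 for lymphatic mRNAs alone.

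Endothelial cells form the inner wall of every blood vessel. New capillaries are led by tip cells that follow vascular endothelial growth factor (VEGF) through the receptor KDR, while Notch signalling and blood flow set the arterial state and the transcription factor NR2F2 the venous state. In the adult ovary vessels grow and regress with each cycle, because the theca layer of growing follicles and the corpus luteum acquire dense capillary networks while the granulosa layer stays free of vessels.

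The mice were female ICR animals, dosed by gavage every day for 35 days from 3 weeks of age and used at 8 weeks. Control mice received ddH2O, and PS-MP mice received 1 mg of particles of 0.1 µm (100 nm in the sample title) in 100 µL. The labels give n = 16 mice without saying whether this holds for each group, the mice of a group share 1 library, and no label ties a cell to a mouse. The other dose and particle groups that the design names are not analysed here.

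With 1 library per group no difference between the groups could be tested. Every ratio below compares these 2 libraries, and each interval (95%, exact) covers counting error only, not the spread between animals or preparations. Intervals of ratios treat UMIs as independent, so they also leave out the spread between cells. They are too narrow where few cells hold most of a gene's UMIs. Whether such an interval includes 1 is therefore a description and no test. Control members held 3134025 UMIs and PS-MP members 2168593, with medians of 7061 and 6047 UMIs and of 2860 and 2519 genes per cell. The median mitochondrial share was 8.29% and 8.31%. Doublet calls marked 20 and 15 members, which were kept in the main values. Across the whole libraries, 3 cell barcodes occurred in both. Values are CPM of UMIs summed over the members, Control first and PS-MP second, and a ratio is PS-MP over Control.

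The label was checked against endothelial genes that the rule did not use. All 15 genes of that list were detected in both libraries, and 14 reached 20 CPM in a library. Esam, an adhesion molecule of endothelial junctions, stood at 1024 and 1071 CPM, against 305 CPM in smooth muscle or pericyte cells, the highest other class over both libraries together. Egfl7, a protein secreted by endothelium, stood at 371 and 418 CPM, against 5.30 CPM in granulosa cells. Erg, a transcription factor that maintains endothelial identity, stood at 196 and 206 CPM, and Mmrn2, a matrix protein of endothelial cells, at 758 and 709.7 CPM, against 1.01 and 1.85 CPM in granulosa cells. After each cell was thinned to 3000 UMIs, Esam was detected in 91.8% and 94.1% of members and in 1.03% and 1.00% of granulosa cells, and Egfl7 in 60.3% and 63.2% against 1.61% and 1.41%. Before thinning the median depth of granulosa cells was 10449 UMIs (Control) and 9422 UMIs (PS-MP). The comparison classes here and below are granulosa, luteal or luteinising, theca, stromal fibroblast, smooth muscle or pericyte, and macrophage or monocyte cells, each chosen by its own marker rule.

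The 15 genes with the highest endothelial level relative to the other classes included 4 of the selecting markers, and of all 6934 genes compared, 177 (2.55%) stood at least 5-fold over the highest other class. Those outside the rule were Mmrn2, Ly6c1, Slc39a8, Podxl, Ctla2a, Igfbp3, Ptprb, Slco2a1, Egfl7, Sox17 and Gimap4. Slco2a1 is the prostaglandin transporter, Podxl a sialomucin of the luminal membrane, and Slc39a8 a zinc transporter. Slco2a1 stood at 504 and 526 CPM, a ratio of 1.04 (0.967 to 1.13). Podxl stood at 336 and 327 CPM, a ratio of 0.975 (0.886 to 1.07), or 0.842 (0.757 to 0.936) in clusters 0 to 4, and Slc39a8 at 926 and 1119.6 CPM, a ratio of 1.21 (1.14 to 1.28). Most of the identity genes outside the rule differed little between the libraries, and among them the widest differences were in Ly6c1 and Igfbp3. Ly6c1, a surface protein of endothelium and monocytes, stood at 717 and 1085 CPM, a ratio of 1.51 (1.43 to 1.60). Igfbp3, which binds insulin-like growth factors, stood at 303 and 234 CPM, a ratio of 0.773 (0.693 to 0.862). Gimap4, a GTPase gene also known from lymphocytes, stood at 220.5 and 276 CPM, a ratio of 1.25 (1.12 to 1.40).

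**Figure D1:**
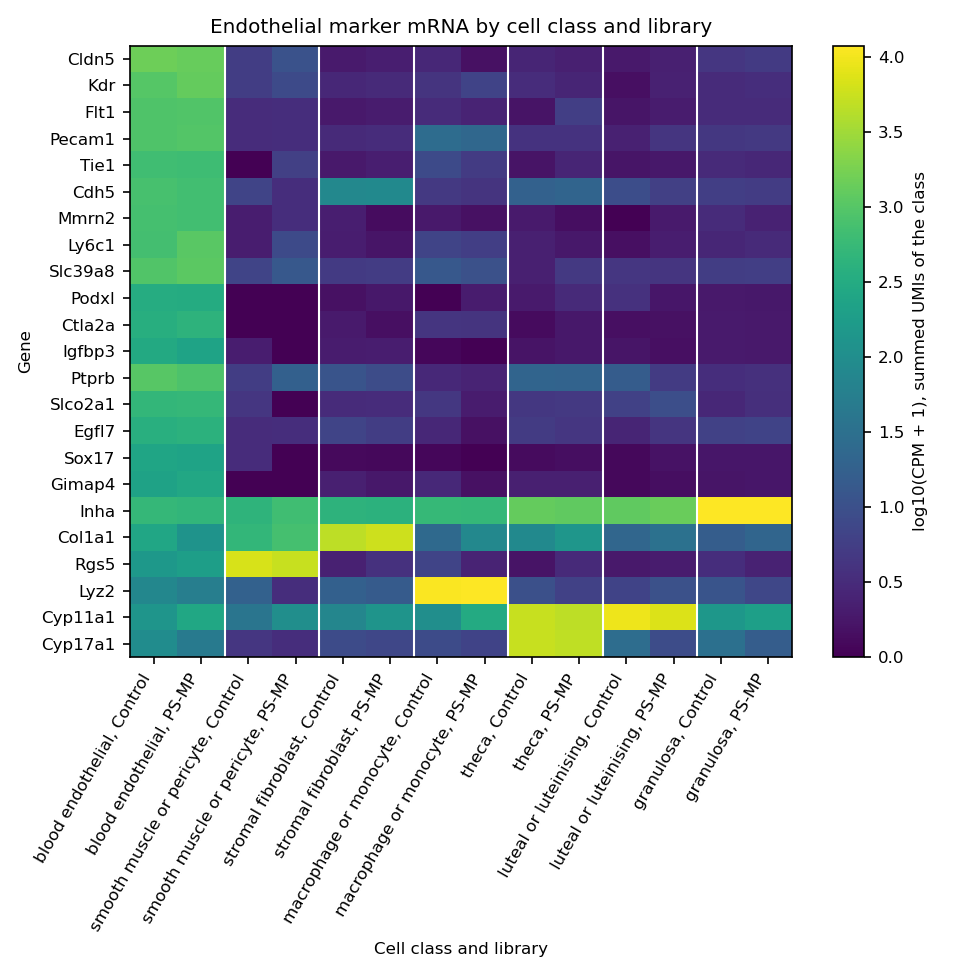
Levels of 17 endothelial genes and 6 genes of other cell types (rows) in blood endothelial cells and the 6 comparison classes of each library (columns), as log10 of CPM + 1 over the summed UMIs of a class. The endothelial genes are high in both endothelial columns and low elsewhere, while Inha, Col1a1, Rgs5, Lyz2, Cyp11a1 and Cyp17a1 are highest in their own classes and present at lower levels in the endothelial columns.

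Cells just outside the rule differed from those just inside it. Cells with 3 endothelial mRNAs that met the other limits numbered 16 (Control) and 9 (PS-MP), and held 88.7 and 48.3 CPM of Esam and 1490 and 1175 CPM of Inha. Members with 4 mRNAs held 259 and 717 CPM of Esam and 831 and 688 CPM of Inha. Egfl7 and Emcn were also higher in these members in both libraries. Markers of other cell types did not separate the cells in this way. Dcn stood at 426 and 378 CPM outside and at 705 and 57.4 CPM inside the rule. Rgs5 stood at 5.91 and 16.1 CPM outside and at 0 and 172 CPM inside. Tyrobp stood at 414 and 8.05 CPM outside and at 157 and 115 CPM inside. These values are descriptions, since the rule itself used related genes.

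The members were 2.39% (2.15 to 2.65) of the Control and 2.08% (1.85 to 2.32) of the PS-MP library. The intervals overlapped. Luteal or luteinising cells numbered 284 (Control) and 1928 (PS-MP) and so weigh on the denominator. Without them the shares were 2.44% (2.19 to 2.70) and 2.39% (2.13 to 2.67).

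Clustering the members alone gave 9 clusters, of which 5 were led by endothelial genes and 4 by genes of other cell types. Cluster 4 was arterial-like: 12 of the 14 arterial markers were highest there, with Stmn2 at 638 and 808 CPM and Sema3g, a guidance cue of arterial endothelium, at 1913 and 1855 CPM. Cluster 2 was dividing-like, with all 12 dividing markers highest there, among them Mki67 at 585 and 415 CPM. Clusters 0, 1 and 3 were left unnamed. Cluster 0 was led by Gpr182, a scavenging chemokine receptor of endothelium, by Rdh10, a retinol dehydrogenase, and by the leucocyte-binding selectin Sele, and 4 of 12 venous markers were highest in it. Cluster 1 was led by Sez6l2, Gpihbp1 (the capillary anchor of lipoprotein lipase), Tnfrsf11b, Kcne3 and F2r (the thrombin receptor), and held the highest summed level of the tip or angiogenic list, 11309 CPM. Cluster 3 was led by transporters that are well known from the blood-brain barrier, namely the organic anion carrier Slco1a4, the glucose transporter Slc2a1, the lysolipid transporter Mfsd2a and the amino acid transporter Slc7a5, and by the chemokine Cxcl12. Cxcl12 is on the arterial list, and all 14 arterial markers reached 20 CPM in cluster 3 as well. Their summed level there was 7087.5 CPM, against 13985 CPM in cluster 4 and 974 to 1619 CPM in clusters 0 to 2. Mfsd2a stood at 287 and 323 CPM in cluster 3 and at 7.62 and 18 CPM in the arterial-like cluster. Because the clusters were built on these genes, these levels describe the clusters and test nothing.

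**Figure D2:**
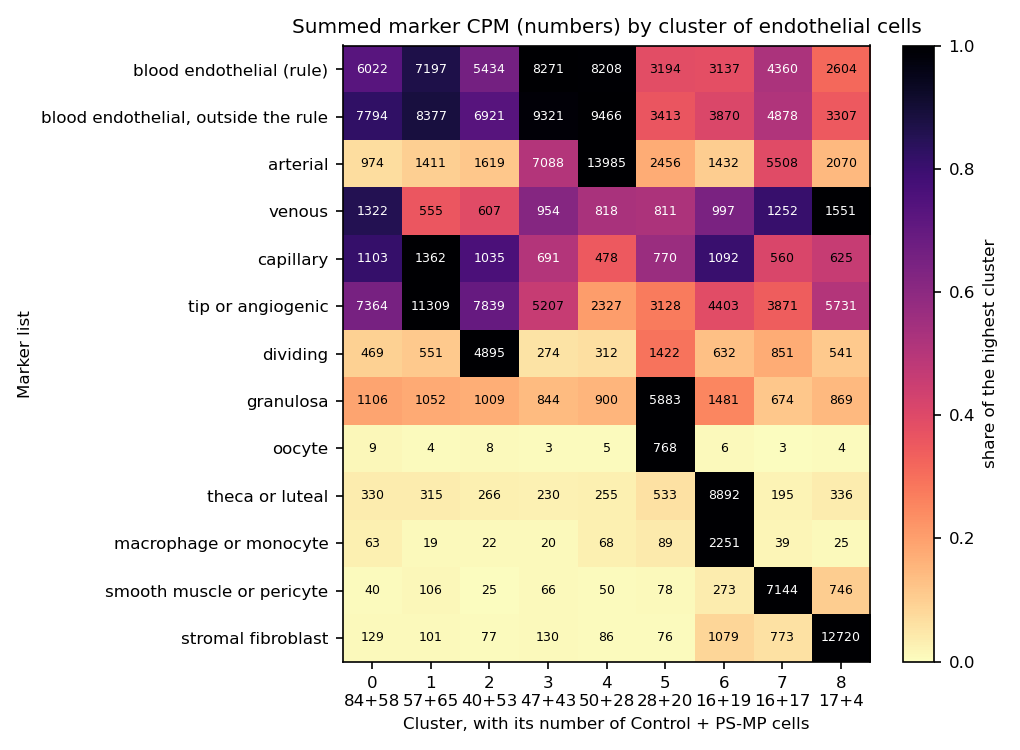
Summed CPM of each marker list (rows, printed numbers) in the 9 clusters of blood endothelial cells (columns, with the Control + PS-MP cells of each), shaded by the share of the highest cluster in the row. Arterial markers peak in cluster 4, dividing markers in cluster 2 and tip or angiogenic markers in cluster 1, while clusters 5 to 8 carry granulosa and oocyte, theca or luteal and macrophage, smooth muscle or pericyte, and stromal markers.

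Clusters 5 to 8 held 137 of the 662 members (77 Control and 60 PS-MP). Their leading genes were Zp2, Ooep and Kctd14 in cluster 5, Cyp17a1, Cd74 and H2-Aa in cluster 6, Rgs5, Notch3 and Tagln in cluster 7, and Lum, Dcn and Col1a1 in cluster 8. Doublet calls marked 34 of these members, against 1 in clusters 0 to 4. In all members the summed stromal markers stood at 1147 and 486 CPM, the theca or luteal markers at 673 and 1069 CPM, the oocyte markers at 126 and 9.68 CPM and the granulosa markers at 1535 and 1366 CPM. Smooth muscle or pericyte markers stood at 569 and 531 CPM, and macrophage or monocyte markers at 194 and 156 CPM. In clusters 0 to 4 alone, stromal markers stood at 102 and 108 CPM, theca or luteal markers at 223 and 367 CPM, oocyte markers at 7.26 and 5.44 CPM, granulosa markers at 1039.9 and 949 CPM, smooth muscle or pericyte markers at 49.5 and 61.1 CPM and macrophage or monocyte markers at 52.7 and 18.7 CPM. Ratios below are for all members, and are also given for the 525 members of clusters 0 to 4 (278 Control and 247 PS-MP) where they moved by over 1.5 times or where their interval came to include or to exclude 1. This split was chosen after the data were seen. Inha stood at 519 and 486 CPM in members, which is 4.32% and 4.14% of its granulosa level, a share that the rule limits because Inha selects both sets of cells. Cyp11a1 stood at 131 and 273 CPM, which is 1.37% and 3.74% of its luteal level.

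In the members of the PS-MP library, the mRNAs of apelin and cyclin D1 were higher than in the Control library. Of the genes read by list, 15 of 28 interferon genes were at least 1.2-fold higher and 3 lower. At least 1.2-fold lower were 6 of 14 arterial, 7 of 11 venous, 7 of 13 vascular tone and 10 of 20 immediate early genes, with 0 higher in these lists. Of 7283 genes with at least 20 CPM in a library, 149 (2.05%) were at least 1.5-fold higher in the PS-MP library and 297 (4.08%) at least 1.5-fold lower. The higher count without clusters 5 to 8 was 238 of 7057 genes. The median log2 ratio over all genes was -0.03. Gene lists below are read at 1.2-fold, a limit that 891 genes (12.2%) passed upward and 1337 (18.4%) downward.

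The highest ratios by the naming rule included those of Kcne3, Apln, Serpina3h, Ifi44, Ccnd1, Dusp7, Ppa1, Tnip1, Irgm2, Sptlc1 and Nme1. Kcne3, an accessory subunit of potassium channels, stood at 22.7 CPM in Control members and 63.6 CPM in PS-MP members, a ratio of 2.81 (2.09 to 3.79). Outside endothelial cells its highest level over both libraries together was 2.31 CPM in granulosa cells. Within the members it was found mainly in cluster 1, at 97.6 and 178 CPM, and in the dividing-like cluster 2, at 37.2 and 98.3 CPM. Serpina3h, a serine protease inhibitor, stood at 23.6 and 54.0 CPM, a ratio of 2.29 (1.69 to 3.10). Dusp7, a phosphatase that acts on ERK kinases, stood at 26.5 and 50.7 CPM, a ratio of 1.92 (1.43 to 2.58), and Tnip1, a restraint on NF-kappaB signalling, at 45.0 and 80.2 CPM, a ratio of 1.78 (1.42 to 2.24). Nme1, a nucleoside diphosphate kinase, stood at 76.6 and 129 CPM, a ratio of 1.69 (1.41 to 2.01), and Ppa1, the inorganic pyrophosphatase, at 33.8 and 62.3 CPM, a ratio of 1.84 (1.42 to 2.40). Sptlc1, a subunit of the enzyme that starts sphingolipid synthesis, stood at 36.4 and 61.3 CPM, a ratio of 1.69 (1.30 to 2.18). All 11 were higher in the PS-MP library with and without clusters 5 to 8. Over both libraries together, several were more abundant in another class than in members. Ppa1 stood at 156 CPM in granulosa cells against 45.4 CPM in members. In luteal or luteinising cells Nme1 stood at 182 CPM against 98.1 CPM and Tnip1 at 94.8 CPM against 59.4 CPM. In smooth muscle or pericyte cells Serpina3h stood at 43.8 CPM against 36.0 CPM and Ccnd1 at 240 CPM against 224 CPM. The part of RNA from these classes was not tested.

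**Figure D3:**
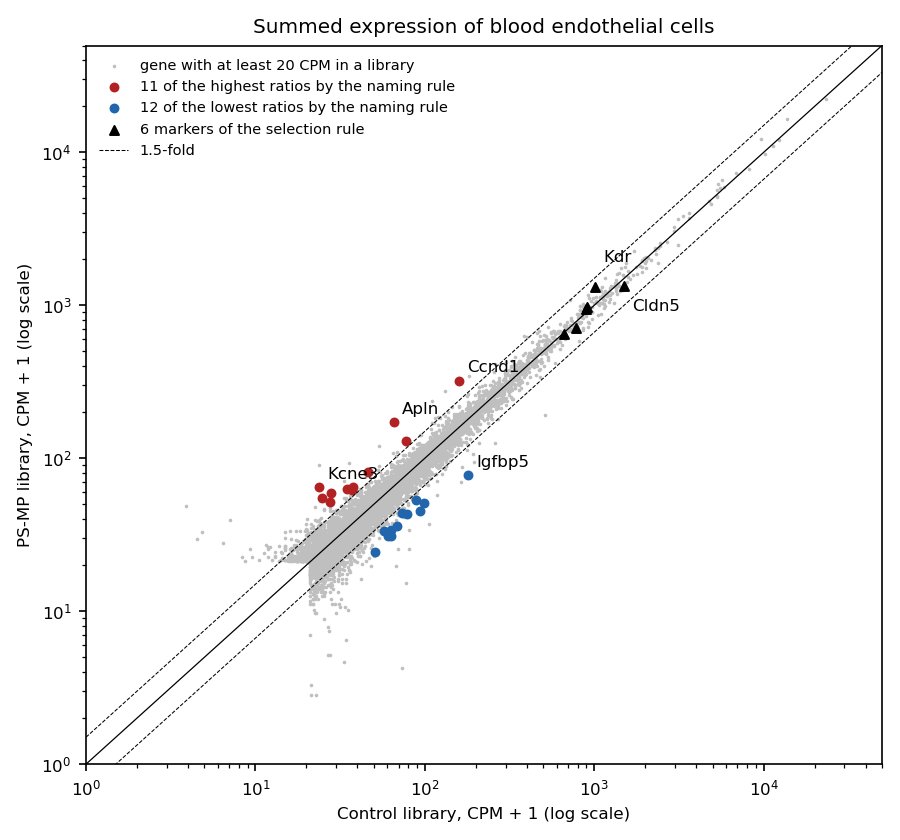
Summed expression of the members in the PS-MP library (y axis) against the Control library (x axis), each as CPM + 1 on a log scale, 1 point per gene with at least 20 CPM in a library. Most genes lie between the dashed 1.5-fold lines. Apln, Kcne3 and Ccnd1 lie above them and Igfbp5 below, and the selecting markers (triangles) lie within them.

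Apelin, the peptide that tip cells release and that acts on sprouting vessels through its receptor APLNR, differed most among the angiogenic genes. Apln stood at 64.8 CPM in Control members and 172 CPM in PS-MP members, a ratio of 2.65 (2.23 to 3.16). At 3000 UMIs per cell it was detected in 9.86% (6.96 to 13.4) and 20.5% (16.1 to 25.5) of members, against 0.263% and 0.554% of granulosa cells. The highest other class held 80.7 CPM in luteal or luteinising cells. Apln was high in clusters 1 and 2, at 177 and 346 CPM and 190.5 and 320.4 CPM, and was as high in the Control as in the PS-MP library in cluster 0, at 54.1 and 53.6 CPM. It was at or near 0 in clusters 3 and 4 of both libraries. In cluster 6, whose leading genes belong to theca and macrophage cells, it stood at 25.9 and 291 CPM. Without clusters 5 to 8 the levels were 85.8 and 189 CPM and the ratio 2.21 (1.84 to 2.66).

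The receptor gene Aplnr stood at 179 and 261 CPM, a ratio of 1.46 (1.30 to 1.64), and both apelin and its receptor were thus higher in the PS-MP library. In the tip or angiogenic list 6 of the 10 members with at least 20 CPM reached 1.2-fold toward PS-MP and 0 toward Control, with a median log2 ratio of 0.31, and without clusters 5 to 8 the counts were 4 of 10 higher and 0 lower, with a median of 0.22. The summed level of this list over all members had a ratio of 1.18. Taken cluster by cluster from 0 to 4, the sum had ratios of 1.09, 1.04, 1.07, 1.02 and 0.697. Cluster 1, where the sum was highest, held 57 Control and 65 PS-MP members, and cluster 4 held 50 and 28. The part of the cluster mix in the all-member values was not tested. Plaur, the urokinase receptor, stood at 35.7 and 55.8 CPM, a ratio of 1.56 (1.2 to 2.04), or 1.35 (0.985 to 1.84) in clusters 0 to 4. Esm1, a proteoglycan secreted by tip cells, stood at 32.5 and 44.7 CPM, a ratio of 1.37 (1.03 to 1.83), or 1.13 (0.828 to 1.54) in clusters 0 to 4, but in cluster 1 it was lower in the PS-MP library, at 135 and 79.8 CPM, and without dividing cells its ratio was 0.803. Nid2, a basement membrane protein, stood at 148 and 187 CPM, a ratio of 1.26 (1.10 to 1.44), and Mcam, an adhesion molecule shared with pericytes, at 207 and 274 CPM, a ratio of 1.32 (1.18 to 1.48). Cxcr4, the receptor of CXCL12 and also a tip cell gene, stood at 58.1 and 54.9 CPM, a ratio of 0.945 (0.744 to 1.2), which includes 1. In the list of apelin and chemokine guidance genes, the 8 genes tested included 3 higher by 1.2-fold or more and 0 lower, and the median log2 ratio was 0.04. Robo4, a receptor that stabilises vessels, stood at 93.5 and 141 CPM, a ratio of 1.51 (1.28 to 1.78), against 1.18 CPM in luteal or luteinising cells, the highest other class over both libraries together. In clusters 0 to 4 Robo4 was higher in each for PS-MP members, for example 115 and 197 CPM in cluster 0 and 43.2 and 83.8 CPM in cluster 4.

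Of the VEGF receptor genes, Kdr and Flt1 belong to the 6 selecting genes and Flt4 to the 6 lymphatic genes that the rule limits, so their values are descriptions. Kdr, the main signalling receptor, stood at 1011 CPM in Control members and 1321 CPM in PS-MP members, a ratio of 1.31 (1.24 to 1.38), and Flt1, the receptor that captures VEGF, stood at 894 and 950.4 CPM, a ratio of 1.06 (1.00 to 1.13), or 0.977 (0.918 to 1.04) in clusters 0 to 4. The Kdr ratio without clusters 5 to 8 was 1.23 (1.17 to 1.30), and within clusters 1 and 2 it stood at 2149.6 and 2289 CPM and 1524 and 1659 CPM. Flt4, the VEGF-C receptor, stood at 106 and 135 CPM, a ratio of 1.28 (1.09 to 1.5) (0.935 at 3000 UMIs per cell), and its ligand gene Vegfc at 201 and 156 CPM, a ratio of 0.774 (0.676 to 0.885). Nrp1, a VEGF co-receptor, stood at 581 and 680.2 CPM, a ratio of 1.17 (1.09 to 1.25). In this list 2 of 10 genes tested passed 1.2-fold upward and 1 downward, with a median log2 ratio of 0.12. Of angiopoietin signalling, Tek, the angiopoietin receptor, stood at 185 and 146 CPM, a ratio of 0.789 (0.685 to 0.906), and Ptprb, the phosphatase that acts on it, at 1059 and 858 CPM, a ratio of 0.810 (0.765 to 0.858), while the related receptor gene Tie1, also a selecting gene, stood at 662 and 652 CPM, a ratio of 0.985 (0.920 to 1.05), or 0.915 (0.850 to 0.985) in clusters 0 to 4. Of the 8 genes of that list 4 reached 20 CPM, 0 passed 1.2-fold upward and 3 downward.

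Most genes of the dividing list were higher in the PS-MP library. Ccnd1, the cyclin that drives the G1 phase, stood at 158 CPM in Control members and 320.0 CPM in PS-MP members, a ratio of 2.03 (1.81 to 2.28). It was concentrated in clusters 1 and 2, at 372 and 583 CPM and 392 and 584 CPM, with 97.0 and 178 CPM in cluster 0. In the dividing list the median log2 ratio was 0.35, with 9 of 12 genes tested higher by 1.2-fold or more and 0 lower. Pcna, the replication clamp, stood at 302 and 424 CPM, a ratio of 1.41 (1.28 to 1.54), Mcm5, a subunit of the replicative helicase, at 53.0 and 88.5 CPM, a ratio of 1.67 (1.35 to 2.07), and Ccna2, cyclin A2, at 92.5 and 142 CPM, a ratio of 1.53 (1.30 to 1.80). The proliferation marker Mki67 stood at 115 and 117 CPM, a ratio of 1.02 (0.863 to 1.2), which includes 1. With each cluster weighted alike the median of the list was 0.01, and members with at least 3 dividing markers numbered 123 of 355 (Control) and 113 of 307 (PS-MP). The dividing-like cluster 2 held 40 Control members (11.3%) and 53 PS-MP members (17.3%). Within it the summed level of the dividing list was 4894 and 4897 CPM, a ratio of 1.00 (0.945 to 1.06). Cdkn1c, an inhibitor of the cell cycle, was lower, at 67.6 and 35.0 CPM, a ratio of 0.518 (0.393 to 0.676).

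Several genes induced by interferon were higher in the PS-MP library. Ifi44, an interferon-induced gene that was low in the other classes (highest at 3.46 CPM in Control smooth muscle or pericyte cells and 6.78 CPM in PS-MP macrophage or monocyte cells), stood at 26.8 and 58.1 CPM, a ratio of 2.17 (1.63 to 2.89), and was detected at 3000 UMIs per cell in 8.45% (5.77 to 11.8) and 14.3% (10.6 to 18.8) of members. The immunity-related GTPases, which guard against intracellular parasites, were led by Igtp at 21.4 and 47.0 CPM, a ratio of 2.20 (1.60 to 3.04), and Irgm2 at 36.7 and 64.1 CPM, a ratio of 1.75 (1.35 to 2.26). The guanylate-binding proteins, which act on the same vacuoles, showed 48.2 and 79.8 CPM for Gbp4, a ratio of 1.66 (1.32 to 2.07), 114 and 183 CPM for Gbp7, a ratio of 1.60 (1.39 to 1.85), and 20.7 and 35.0 CPM for Gbp3, a ratio of 1.69 (1.2 to 2.39). In cluster 0 the same genes stood at 90.7 and 206 CPM for Gbp4 and 124 and 344 CPM for Gbp7.

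The list as a whole was mixed. In the interferon list of 37 genes 15 of the 28 members with at least 20 CPM reached 1.2-fold toward PS-MP and 3 toward Control, with a median log2 ratio of 0.26, and without clusters 5 to 8 the counts were 15 of 28 higher and 1 lower, with a median of 0.36. Stat2, a transcription factor of the type I response, stood at 69.2 and 54.4 CPM, a ratio of 0.786 (0.623 to 0.988). Of the genes named above, Gbp3 was also present in macrophages, at 45.6 CPM in macrophage or monocyte cells. Irgm2 stood at 138 CPM in theca cells against 47.9 CPM in members, over both libraries together. The part of theca RNA in its value was not tested. Cxcl10, an interferon-induced chemokine that attracts T cells, stood at 257 and 409 CPM, a ratio of 1.59 (1.45 to 1.75), and was high in cluster 0, at 584 and 1418 CPM.

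Promoters of the higher interferon genes were read for the core of the interferon-response motif, 2 copies of GAAA with 2 bases of any kind between them, searched on both strands (2 copies of TTTC on the reverse) from 250 bases before to 50 bases after the transcript start. The promoter sequences are those of RefSeq on GRCm38.p6, matched by gene symbol, while the submitters' processing notes name GRCm39. The motif occurred in 1079 of 27025 genes of the table (3.99%), in 230 of 5810 of the genes tested (3.96%), and in 15 of the 27 interferon genes with an entry (55.6%). Among interferon genes with an entry that were at least 1.2-fold higher it occurred in 5 of 9, and among those tested that were not, in 5 of 11, so its presence did not separate these groups. The promoters of Gbp3, Gbp7 and Igtp are shown because they are the named higher genes with a match, marked in capitals. A gene was counted when any of its promoter entries held a match. In Gbp3 (chr3:142559794-142560093, plus strand) 2 overlapping matches begin at -45 and -39 from the start. A second Gbp3 entry (chr3:142560106-142560405, plus strand) held no match and is not shown. In Gbp7 (chr3:142530086-142530385, plus strand) the match begins at -53, and in Igtp (chr11:58199306-58199605, plus strand) at -34.
Gbp3: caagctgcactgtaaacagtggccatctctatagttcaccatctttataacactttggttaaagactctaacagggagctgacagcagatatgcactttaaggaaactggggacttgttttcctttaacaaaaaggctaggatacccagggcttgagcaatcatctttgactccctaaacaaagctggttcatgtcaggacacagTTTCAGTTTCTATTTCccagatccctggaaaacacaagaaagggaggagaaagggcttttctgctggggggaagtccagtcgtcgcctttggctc
Gbp7: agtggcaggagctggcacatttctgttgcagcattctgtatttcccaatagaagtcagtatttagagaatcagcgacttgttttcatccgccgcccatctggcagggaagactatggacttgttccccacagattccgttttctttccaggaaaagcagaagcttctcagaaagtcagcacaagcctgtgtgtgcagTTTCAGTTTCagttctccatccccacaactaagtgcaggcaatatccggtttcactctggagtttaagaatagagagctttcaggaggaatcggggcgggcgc
Igtp: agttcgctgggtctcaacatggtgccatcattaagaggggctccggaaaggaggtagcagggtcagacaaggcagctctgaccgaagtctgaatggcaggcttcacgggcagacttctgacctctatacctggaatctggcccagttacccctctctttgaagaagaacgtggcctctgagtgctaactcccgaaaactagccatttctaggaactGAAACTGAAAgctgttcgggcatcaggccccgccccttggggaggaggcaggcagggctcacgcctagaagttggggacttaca
The windows of Ifi35, Ifi44 and Oasl2 held no match to these letters.

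Several genes of antigen presentation through MHC class I were higher in the PS-MP library, and 3 class II genes were lower. B2m, the light chain of class I, stood at 1712 and 2265 CPM, a ratio of 1.32 (1.27 to 1.38), and H2-K1, a class I heavy chain, at 915 and 1165 CPM, a ratio of 1.27 (1.21 to 1.34). Tap1, which carries peptides into the endoplasmic reticulum, stood at 34.8 and 48.0 CPM, a ratio of 1.38 (1.04 to 1.82), and Psmb9, an immunoproteasome subunit, at 30.0 and 42.9 CPM, a ratio of 1.43 (1.06 to 1.93). Not all class I genes went this way. H2-D1 had a ratio of 1.17 (1.14 to 1.21) and H2-Q4 of 1.05 (0.825 to 1.33). H2-T23 was more than 1.2-fold lower, at 0.798 (0.605 to 1.05), with an interval that includes 1. In this list the 18 genes tested included 9 higher by 1.2-fold or more and 4 lower, and the median log2 ratio was 0.29. Cd74, the class II invariant chain, stood at 193 and 93.1 CPM, a ratio of 0.482 (0.409 to 0.566), or 0.251 (0.114 to 0.499) in clusters 0 to 4, and H2-Aa at 163 and 69.2 CPM, a ratio of 0.425 (0.352 to 0.511). Both were leading genes of cluster 6, and without clusters 5 to 8 they stood at 24.1 and 6.05 CPM and 23.6 and 7.26 CPM, against 7937 CPM in macrophage or monocyte cells. The part of macrophage or dendritic RNA in the class II values was not tested. Ly6e, an interferon-induced surface protein, stood at 1156 and 1506 CPM, a ratio of 1.30 (1.24 to 1.37). Ly6c1, described among the identity genes, had a higher PS-MP level in each of clusters 0 to 4, from 622 and 849 CPM in cluster 1 up to 1224 and 2262 CPM in the arterial-like cluster.

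Arterial and Notch genes were lower in the PS-MP library or within 1.2-fold. In the arterial list 0 of 14 genes tested passed 1.2-fold upward and 6 downward, with a median log2 ratio of -0.19, and without clusters 5 to 8 the counts were 0 of 14 higher and 9 lower, with a median of -0.40. Hey1, a Notch target that specifies arteries, stood at 178 and 122 CPM, a ratio of 0.683 (0.587 to 0.792), and in the arterial-like cluster 4 at 480.1 and 251 CPM. Alpl, tissue-nonspecific alkaline phosphatase, stood at 130.2 and 83.9 CPM, a ratio of 0.645 (0.538 to 0.770), and Fbln5, an elastic fibre protein, at 361 and 279 CPM, a ratio of 0.774 (0.70 to 0.855). Jag1, a Notch ligand, stood at 233 and 184 CPM, a ratio of 0.789 (0.697 to 0.893), whereas the tip and arterial ligand Dll4 stood at 354 and 326 CPM, a ratio of 0.922 (0.838 to 1.01), or 0.866 (0.779 to 0.963) in clusters 0 to 4. Other arterial genes did not follow within the arterial-like cluster, where Fbln5 stood at 1717 and 1987 CPM, Stmn2 at 638 and 808 CPM and Sema3g at 1913 and 1855 CPM. The summed arterial level of all members was 3921 and 3442 CPM, a ratio of 0.878 (0.853 to 0.903), but within clusters 0 to 4 the ratios of that sum were, in order, 1.41, 1.16, 0.492, 0.959 and 1.15. Cluster 4 held 50 Control and 28 PS-MP members, and with each cluster weighted alike the median of the arterial list was -0.01. In the Notch list the median log2 ratio was -0.14, with 0 of 12 genes tested higher by 1.2-fold or more and 4 lower. The receptor genes Notch1 and Notch4, the latter typical of endothelium, stood at 224 and 206 CPM and 154 and 177 CPM, with ratios of 0.919 (0.815 to 1.04) and 1.15 (1.00 to 1.32), or 0.832 (0.725 to 0.952) and 1.06 (0.916 to 1.24) in clusters 0 to 4. Heyl, a further target, was low at 27.8 and 12.9 CPM and is a pericyte gene in these data (345 CPM in smooth muscle or pericyte cells).

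Venous genes were also lower or within 1.2-fold, and genes that bind leucocytes were mixed. In the venous list 0 of the 11 members with at least 20 CPM reached 1.2-fold toward PS-MP and 7 toward Control, with a median log2 ratio of -0.31, and without clusters 5 to 8 the counts were 0 of 11 higher and 6 lower, with a median of -0.32. Nr2f2, the transcription factor that sets venous identity, stood at 209 CPM in Control members and 125 CPM in PS-MP members, a ratio of 0.599 (0.518 to 0.691). It was more abundant in smooth muscle or pericyte cells (1297 CPM), but without clusters 5 to 8 its levels were 129 and 79.2 CPM and its ratio 0.614 (0.496 to 0.758). Sele, the selectin that endothelium shows when activated, stood at 88.1 and 52.1 CPM, a ratio of 0.592 (0.471 to 0.739), and was highest in cluster 0, at 227 and 180.4 CPM. Selp, the selectin stored in Weibel-Palade bodies, stood at 31.3 and 20.8 CPM, a ratio of 0.664 (0.456 to 0.954), or 0.685 (0.448 to 1.03) in clusters 0 to 4. Vcam1, which binds leucocyte integrins, stood at 57.1 and 36.0 CPM, a ratio of 0.630 (0.476 to 0.826), and its level was highest in the arterial-like cluster, at 277 and 209 CPM. Icam1, a ligand of the same kind, stood at 249 and 203 CPM, a ratio of 0.814 (0.723 to 0.916). Ephb4, a venous receptor, stood at 204 and 182 CPM, a ratio of 0.891 (0.784 to 1.01), or 0.802 (0.697 to 0.923) in clusters 0 to 4, and Vwf at 38.3 and 43.8 CPM, a ratio of 1.14 (0.865 to 1.51). In the leucocyte adhesion list the 10 genes tested included 1 higher by 1.2-fold or more and 4 lower, and the median log2 ratio was -0.06, and Emcn, a sialomucin of capillaries and veins that hinders adhesion, was the member on the higher side, at 253 and 318 CPM, a ratio of 1.26 (1.13 to 1.39). The summed level of the leucocyte adhesion list was higher in the PS-MP library, at 2929 and 3158 CPM, a ratio of 1.08 (1.05 to 1.11). In the inflammation list 1 of 13 genes tested passed 1.2-fold upward and 5 downward, with a median log2 ratio of -0.17, with Il1r1, the interleukin-1 receptor, at 38.0 and 24.4 CPM, a ratio of 0.644 (0.457 to 0.897).

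Capillary markers lay on both sides. Among the 10 markers 7 reached 20 CPM, 2 of them at least 1.2-fold higher and 1 lower. Rgcc, a regulator of the cell cycle found in capillaries, stood at 182 and 343 CPM, a ratio of 1.89 (1.69 to 2.11), but it was far higher in luteal or luteinising cells (1611 CPM), which were more numerous in the PS-MP library, and the part of their RNA was not tested. In clusters 0 to 3 Rgcc was higher in the PS-MP library, for example 301 and 474 CPM in cluster 1. Aqp1, a water channel, stood at 33.5 and 14.3 CPM, a ratio of 0.427 (0.276 to 0.642), and was lower in clusters 0, 3 and 4. Gpihbp1 in cluster 1 stood at 76.5 and 37.3 CPM.

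Genes of vascular tone were lower or level in the PS-MP library, and none of those tested was at least 1.2-fold higher. In this list the median log2 ratio was -0.32, with 0 of 13 genes tested higher by 1.2-fold or more and 7 lower. Calcrl, the receptor subunit for adrenomedullin and CGRP, stood at 177 CPM in Control members and 113 CPM in PS-MP members, a ratio of 0.638 (0.547 to 0.743). It was lower in clusters 0 to 3, with 270.4 and 161 CPM (cluster 0) and 189.9 and 95.8 CPM (cluster 1), and not in cluster 4, at 86.4 and 95.7 CPM. Ramp2, the partner that makes CALCRL an adrenomedullin receptor, stood at 763 and 725 CPM, a ratio of 0.950 (0.891 to 1.01), or 0.907 (0.846 to 0.972) in clusters 0 to 4. Ednrb, the endothelial receptor for endothelins, stood at 302 and 222 CPM, a ratio of 0.736 (0.658 to 0.823), and was lower in each of clusters 0 to 4, for example 754 and 349 CPM in cluster 1. Npr1, the receptor for atrial natriuretic peptide, stood at 161 and 124 CPM, a ratio of 0.771 (0.663 to 0.896). The nitric oxide synthase gene Nos3 stood at 240.3 and 239.8 CPM, a ratio of 0.998 (0.891 to 1.12), and endothelin 1 (Edn1) at 163 and 153 CPM, a ratio of 0.939 (0.815 to 1.08), and both intervals include 1.

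Over all members, immediate early genes, which respond quickly to growth factors and blood flow, were lower in the PS-MP library or within 1.2-fold. In this list 0 of the 20 members with at least 20 CPM reached 1.2-fold toward PS-MP and 10 toward Control, with a median log2 ratio of -0.26. The clusters did not all share this direction. The summed level of the list had ratios of 1.18, 0.814, 0.829, 0.842 and 0.778 in clusters 0 to 4, in order. In cluster 0 this sum stood at 14267 and 16833 CPM. Cluster 5 had a ratio of 1.46, and clusters 6 to 8 had 0.908, 0.74 and 0.924. Fos stood at 3117 and 2487 CPM, a ratio of 0.798 (0.772 to 0.825), Fosl2 at 588 and 418 CPM, a ratio of 0.710 (0.655 to 0.769), and the antiproliferative gene Btg2 at 809 and 583 CPM, a ratio of 0.721 (0.673 to 0.772). Klf2 and Klf4, the transcription factors that laminar flow induces in endothelium, stood at 1146 and 964 CPM and 853 and 694 CPM, with ratios of 0.841 (0.796 to 0.888) and 0.813 (0.763 to 0.867). Both were highest in the arterial-like cluster, at 2796 and 2034 CPM and 2245 and 1765 CPM, and in cluster 0 the order was the opposite, with 651 and 832 CPM and 503 and 600.4 CPM. Nr4a3, an orphan nuclear receptor of the same response, stood at 77.2 and 42.0 CPM, a ratio of 0.543 (0.422 to 0.694), and Gadd45b, a stress-response gene, at 59.3 and 30.0 CPM, a ratio of 0.505 (0.375 to 0.673). Per1, a clock gene, stood at 72.4 and 42.9 CPM, a ratio of 0.592 (0.460 to 0.757).

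Transcription factors of endothelial identity were mostly level. In this list the 23 genes tested included 1 higher by 1.2-fold or more and 6 lower, and the median log2 ratio was -0.10. Erg had a ratio of 1.05 (0.931 to 1.19), Sox17 of 0.931 (0.831 to 1.04) and Sox18 of 1.16 (1.06 to 1.28), the last at 321 and 373 CPM. In clusters 0 to 4 Sox17 had 0.868 (0.765 to 0.985) and Sox18 1.07 (0.964 to 1.18). Foxo1, which holds endothelial cells in quiescence, stood at 207 and 152 CPM, a ratio of 0.733 (0.640 to 0.838). Foxo1 is far more abundant in granulosa cells (1037 CPM), and the part of their RNA was not tested. Meox1, a homeobox factor, stood at 54.6 and 76.5 CPM, a ratio of 1.40 (1.13 to 1.75), and was the member of this list at least 1.2-fold higher.

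Basement membrane genes lay on both sides of 1. In this list 5 of 20 genes tested passed 1.2-fold upward and 4 downward, with a median log2 ratio of 0.15. Lamc1, the gamma chain shared by most laminins, stood at 457 and 659 CPM, a ratio of 1.44 (1.34 to 1.55), with 934 and 1078 CPM and 749 and 1062 CPM in clusters 1 and 2. Col4a2, a collagen IV chain, stood at 1444 and 1758 CPM, a ratio of 1.22 (1.17 to 1.27), and Sparc, a collagen-binding matricellular protein, at 13763 and 16652 CPM, a ratio of 1.21 (1.19 to 1.23). Itga6, a laminin receptor, stood at 300.2 and 374 CPM, a ratio of 1.25 (1.13 to 1.37). Agrn, a heparan sulphate proteoglycan, stood at 115 and 77.9 CPM, a ratio of 0.678 (0.562 to 0.817), the lowest ratio of the list. Without clusters 5 to 8 the counts were 2 of 20 higher and 2 lower, with a median of 0.10.

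Binding proteins of insulin-like growth factors differed in both directions. Igfbp7, an angiogenesis-modulating protein, stood at 9634 and 12307 CPM, a ratio of 1.28 (1.26 to 1.30). Igfbp3, given above, had a lower PS-MP level in each of clusters 0 to 4, with 673 and 458 CPM in cluster 1 and 257 and 95.7 CPM in cluster 4. Igfbp5 had the lowest ratio of the genes named by the rule, at 179.6 and 76.5 CPM, a ratio of 0.426 (0.356 to 0.508). It stood at 676 and 135 CPM in cluster 0 and at 23.7 and 47.9 CPM in cluster 1. At 3000 UMIs per cell it was detected in 10.7% (7.69 to 14.4) and 10.7% (7.52 to 14.8) of members. When the members were clustered at resolution 0.8, its highest level, 1447 CPM, lay in a cluster of 29 Control and 10 PS-MP members, against at most 205 CPM in any other cluster. Without clusters 5 to 8 the ratio was 0.255 (0.20 to 0.321), and with each cluster weighted alike it was 1.07. Igfbp4 stood at 1221 and 1058 CPM, a ratio of 0.866 (0.822 to 0.912), and the insulin receptor gene Insr at 186 and 148 CPM, a ratio of 0.80 (0.696 to 0.918).

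Besides Igfbp5, the 12 lowest ratios belonged to Ddit4l, Uchl1, Serpinf1, Gadd45b, Nnat, Cdkn1c, Mctp1, Nr4a3, ENSMUSG00000121093, Sele and Per1. Ddit4l, an inhibitor of mTOR signalling, stood at 50.1 and 23.5 CPM, a ratio of 0.469 (0.335 to 0.648), but without clusters 5 to 8 at 18.2 and 18.7 CPM, a ratio of 1.03 (0.624 to 1.69). Uchl1, a ubiquitin hydrolase, and Nnat, a granulosa gene in these data (459 CPM in granulosa cells), stood at 92.9 and 44.3 CPM and 98.6 and 50.3 CPM, with ratios of 0.477 (0.375 to 0.602) and 0.510 (0.406 to 0.636). Without clusters 5 to 8 these ratios were 0.733 (0.495 to 1.07) and 0.804 (0.513 to 1.24), and both intervals include 1. ENSMUSG00000121093, which the files list without a symbol, stood at 56.2 and 32.3 CPM, a ratio of 0.575 (0.429 to 0.762), and without those clusters the ratio was 0.681 (0.393 to 1.15). Serpinf1, the anti-angiogenic factor PEDF, stood at 62.5 and 30.0 CPM, a ratio of 0.479 (0.356 to 0.638), and kept this direction without clusters 5 to 8, at 64.9 and 31.4 CPM. It is also a stromal gene (117 CPM in stromal fibroblast cells). Mctp1, a calcium-binding membrane protein, stood at 62.2 and 32.7 CPM, a ratio of 0.526 (0.395 to 0.694).

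**Figure D4:**
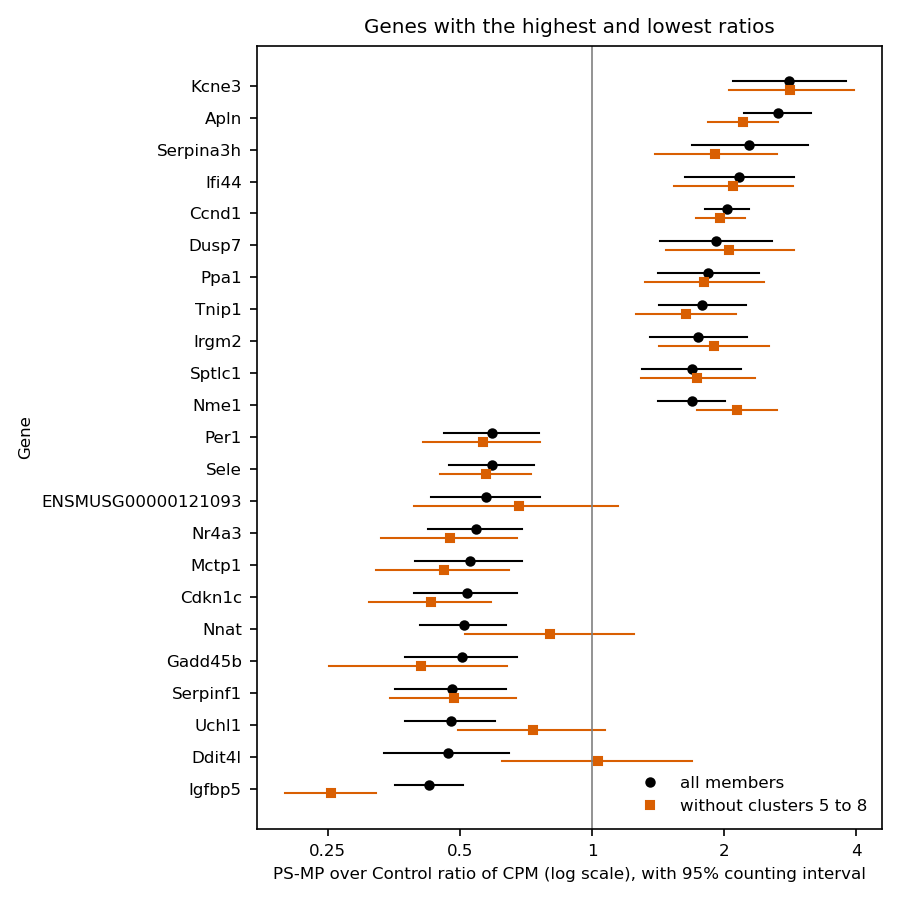
Ratio of PS-MP to Control CPM (x axis, log scale) for 11 genes among the highest ratios and the 12 with the lowest, for all members (black) and without clusters 5 to 8 (orange), with bars for the 95% counting interval. Both values lie above 1 for every gene of the upper group, while Ddit4l, Uchl1, Nnat and ENSMUSG00000121093 reach 1 once these clusters are left out.

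Junction, caveolar and transport genes were close to level. In the junction list the median log2 ratio was -0.01, with 2 of 18 genes tested higher by 1.2-fold or more and 2 lower. Cldn5 and Cdh5 are selecting genes, so their values are descriptions. Cldn5, the main claudin of endothelial tight junctions, stood at 1503 and 1329 CPM, a ratio of 0.884 (0.844 to 0.926), and Cdh5, VE-cadherin, at 775 and 711 CPM, a ratio of 0.916 (0.859 to 0.977). Without clusters 5 to 8 these ratios were 0.801 (0.761 to 0.844) and 0.859 (0.801 to 0.921). Jup, plakoglobin, stood at 241 and 301 CPM, a ratio of 1.25 (1.12 to 1.39), or 1.11 (0.989 to 1.25) in clusters 0 to 4, and Jam2 at 156 and 122 CPM, a ratio of 0.779 (0.668 to 0.906). In the list of caveolae, fenestrae and transcytosis 2 of the 11 members with at least 20 CPM reached 1.2-fold toward PS-MP and 0 toward Control, with a median log2 ratio of 0.01, and in that of water, ion and solute transport the 12 genes tested included 0 higher by 1.2-fold or more and 2 lower, and the median log2 ratio was -0.01. Cav1, caveolin 1, stood at 312 and 348 CPM, a ratio of 1.11 (1.01 to 1.23), or 1.04 (0.932 to 1.15) in clusters 0 to 4, and Abcb1a, a drug efflux pump, at 665 and 728 CPM, a ratio of 1.09 (1.02 to 1.17), or 1.03 (0.958 to 1.11) in clusters 0 to 4.

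Paracrine and clotting genes showed single differences. Bmp6, a BMP ligand, stood at 28.7 and 8.76 CPM, a ratio of 0.305 (0.176 to 0.504), or 0.196 (0.0899 to 0.383) in clusters 0 to 4, with its level in the arterial-like cluster at 139.7 and 23.9 CPM. In the BMP and TGF-beta list 2 of 14 genes tested passed 1.2-fold upward and 3 downward, with a median log2 ratio of 0.09. Bmpr2, the type II BMP receptor, stood at 322 and 249 CPM, a ratio of 0.773 (0.695 to 0.860), and Eng, endoglin, at 298 and 356 CPM, a ratio of 1.2 (1.09 to 1.32). S1pr1, the sphingosine 1-phosphate receptor that stabilises vessels, stood at 353 and 309.9 CPM, a ratio of 0.877 (0.796 to 0.966), and Spns2, which exports its ligand, at 78.2 and 95.5 CPM, a ratio of 1.22 (1.01 to 1.48), or 1.17 (0.946 to 1.44) in clusters 0 to 4. F3, tissue factor, stood at 5.42 and 26.7 CPM, a ratio of 4.93 (2.83 to 9.03), or 3.20 (1.05 to 11.6) in clusters 0 to 4. The value in clusters 0 to 4 rests on 5 Control and 12 PS-MP UMIs. F3 is a luteal gene in these data (311 CPM in luteal or luteinising cells), theca or luteal markers were higher in the PS-MP members as given above, and the part of luteal RNA was not tested. Procr, the protein C receptor, stood at 312 and 258 CPM, a ratio of 0.827 (0.744 to 0.918), or 1.02 with clusters weighted alike.

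The title of the series names the cytoskeleton and epigenetic regulation, so these genes were read in the endothelial cells too. Actb, cytoplasmic beta-actin, stood at 5689 and 6586 CPM, a ratio of 1.16 (1.13 to 1.18). In the tubulin list the median log2 ratio was 0.24, with 4 of 9 genes tested higher by 1.2-fold or more and 0 lower. Within clusters 0 to 4 the summed tubulin level had ratios of 0.985, 1.09, 1.10, 1.02 and 0.985, in order. Tuba1b stood at 472 and 678 CPM, a ratio of 1.44 (1.34 to 1.55), and was highest in the dividing-like cluster 2, at 1542 and 1834 CPM, with 219 and 209 CPM in cluster 0. Among enzymes that methylate or demethylate DNA and histones, 3 of the 26 members with at least 20 CPM reached 1.2-fold toward PS-MP and 7 toward Control, with a median log2 ratio of -0.13, and without clusters 5 to 8 the counts were 1 of 26 higher and 13 lower, with a median of -0.25. Dnmt1, which copies DNA methylation at replication, stood at 56.2 and 72.4 CPM, a ratio of 1.29 (1.03 to 1.61), while the de novo enzyme gene Dnmt3a stood at 63.5 and 46.6 CPM, a ratio of 0.733 (0.571 to 0.937). Setd2, a histone H3 methyltransferase that acts on transcribed genes, stood at 116 and 77.9 CPM, a ratio of 0.673 (0.557 to 0.810), and Tet2, which oxidises methylcytosine, at 42.1 and 29.1 CPM, a ratio of 0.690 (0.503 to 0.938), or 0.697 (0.475 to 1.01) in clusters 0 to 4.

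Genes of glycolysis were more often higher than lower, and stress genes were closer to level. In the glycolysis and hypoxia list the 17 genes tested included 7 higher by 1.2-fold or more and 1 lower, and the median log2 ratio was 0.25. Pgk1, phosphoglycerate kinase, stood at 137 and 198 CPM, a ratio of 1.45 (1.27 to 1.66), and Pfkfb3, the activator of glycolysis in sprouting endothelium, at 22.0 and 37.8 CPM, a ratio of 1.72 (1.23 to 2.40), or 1.45 (0.995 to 2.11) in clusters 0 to 4. Bnip3 stood at 22.7 and 35.5 CPM, a ratio of 1.57 (1.12 to 2.20), but is high in luteal cells (634 CPM in luteal or luteinising cells) and had a ratio of 0.705 (0.375 to 1.28) without clusters 5 to 8. In the antioxidant list 0 of 18 genes tested passed 1.2-fold upward and 4 downward, with a median log2 ratio of -0.08, and in the heat shock list the median log2 ratio was 0.08, with 4 of 21 genes tested higher by 1.2-fold or more and 1 lower. Hmox1, haem oxygenase 1, stood at 30.6 and 28.6 CPM, a ratio of 0.933 (0.667 to 1.30). Of the 4 aryl hydrocarbon receptor genes that reached 20 CPM, 0 passed 1.2-fold in either direction. In the apoptosis list 0 of the 14 members with at least 20 CPM reached 1.2-fold toward PS-MP and 3 toward Control, with a median log2 ratio of -0.10.

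**Figure D5:**
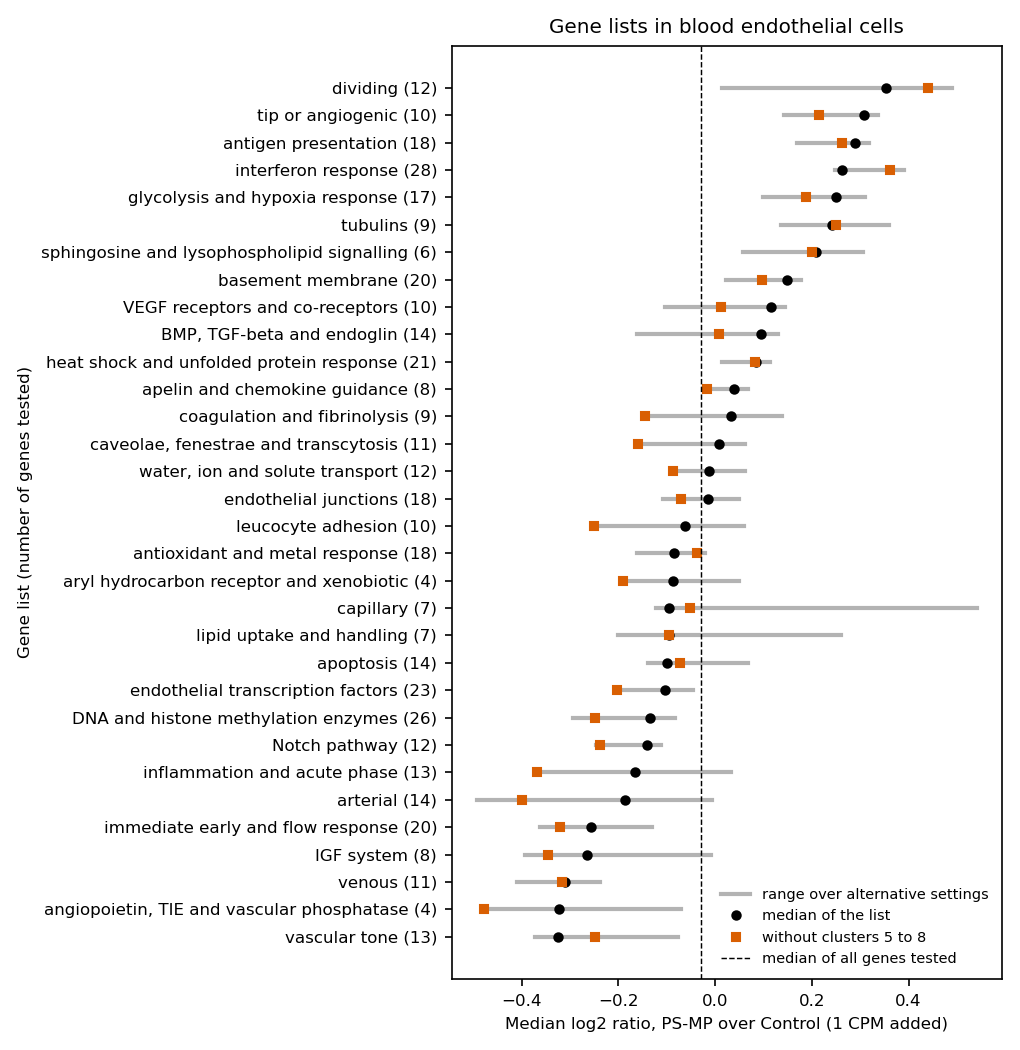
Median log2 ratio of PS-MP to Control (x axis, 1 CPM added) of each gene list (y axis, with the number of genes tested), for all members (black) and without clusters 5 to 8 (orange). Grey bars span the medians over the alternative settings, and the dashed line is the median of all genes tested, -0.03. Dividing, tip or angiogenic, antigen presentation and interferon lists lie highest, and vascular tone, angiopoietin, venous and IGF lists lowest.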

How the data were processed

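Single ovarian cells of 2 groups of mice were captured on beads with the BD Rhapsody system and sequenced, per the labels' protocols, with 1 library per group. The authors deposited raw UMI counts per gene and cell without normalization. GRCm39 and Seurat are named per the submitters' processing notes with no role. The aligner, counting tool, cell calling and annotation were not given in the sources used.

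Cells with at least 500 genes and at most 25% mitochondrial counts were kept, 14853 of 15373 (Control) and 14770 of 15056 (PS-MP). The members and the gene lists were chosen with earlier results of these data known. UMIs were summed over the members of a library and scaled to CPM. Ratios carry exact conditional binomial intervals and shares exact Clopper-Pearson intervals, computed with numpy 2.4.6 and scipy 1.17.1 in Python 3.11.15. The code for the ratio intervals was run on simulated independent counts. Those counts had no spread between cells, so the run cannot show how well the intervals cover in these data. Log2 ratios had 1 CPM added to both values. A comparison class took cells that were not members and met exactly 1 class rule: Inha at or over 5000 CPM (granulosa), Lhcgr with Cyp11a1 at or over 2000 CPM (luteal or luteinising), Cyp17a1 at or over 500 CPM (theca), or at least 4 markers of stromal, pericyte or macrophage cells. Members were clustered with scanpy 1.11.5 and leidenalg 0.10.2 on 1000 variable genes (15 components, 15 neighbours, resolution 0.5, seed 1) without batch correction. Scrublet calls at an expected rate of 0.05 were kept. For shares of cells with a UMI, every cell was thinned to 3000 UMIs, and 0 members were shallower.

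The text names the 12 highest and 12 lowest ratios among genes that reached 50 CPM in 1 of the libraries and 0.2 times the level of every comparison class, without ribosomal, mitochondrial, haemoglobin or unnamed models of the Gm and Rik kind. Of these, 1 of the highest ratios and 1 list are not reported here. It also names the 15 most endothelial genes, up to 6 per list and leading genes of clusters. Some lists have more than 6 genes named, and those beyond the rule, with Ifi35 and Oasl2, were chosen after their values were seen. Alternatives changed the number of markers, the mitochondrial limit, doublets, dividing cells, members with another type's markers, depth, scaling, the minimum level, cell and cluster weights and the resolution. Figures were drawn with matplotlib 3.10.9.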

Additional observations from a re-analysis of the deposited data

Results flagged for a closer look

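Several named genes differed in opposite directions in endothelial cells and in another class, by at least 1.5-fold on both sides. None of these differences between classes was tested. Igfbp5, lower in PS-MP endothelial cells (0.426), was higher in stromal fibroblast cells, at 122 and 197 CPM, a ratio of 1.62, and in theca cells, at 17.1 and 41.8 CPM, a ratio of 2.44. Ccnd1, higher in PS-MP endothelial cells (2.03), was lower in smooth muscle or pericyte cells, at 273 and 169 CPM, a ratio of 0.618. Irgm2, an interferon-induced GTPase with an endothelial ratio of 1.75, was lower in luteal or luteinising cells, at 39.1 and 17.7 CPM, a ratio of 0.453. Uchl1 (0.477 in endothelial cells) had a ratio of 1.61 in theca cells, at 12.6 and 20.2 CPM. Nnat (0.510) and Mctp1 (0.526) had ratios of 2.92 and 1.75 in smooth muscle or pericyte cells, at 27.6 and 80.7 CPM and 51.8 and 90.5 CPM. ENSMUSG00000121093 (0.575) had ratios of 1.55 in theca cells, at 67.9 and 105 CPM, and 1.92 in luteal or luteinising cells, at 267 and 514 CPM. In clusters 0 to 4 the endothelial ratios of Uchl1, Nnat and ENSMUSG00000121093 were 0.733 (0.495 to 1.07), 0.804 (0.513 to 1.24) and 0.681 (0.393 to 1.15), which are under 1.5-fold and whose intervals include 1, and with clusters weighted alike that of Igfbp5 was 1.07.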

How the results depend on the processing

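Of the 21 list medians of at least 0.1 on the log2 scale in either direction, 17 kept their direction in each of 12 alternative settings, and of the 102 named genes at least 1.2-fold apart 92 did. Some settings could not turn a result. The limit of 50 CPM left the ratio of each gene as it was. Division by the median ratio of 0.98 was too small a change to reverse such a gene or list median. The apoptosis median turned to 0.068 at 50 CPM in a library and to 0.026 without members holding another type's markers, that of endothelial genes outside the rule to -0.018 without clusters 5 to 8, inflammation to 0.033 with clusters weighted alike, and VEGF receptors to -0.10 at 3000 UMIs per cell. Among genes, Ddit4l turned to a ratio of 1.03 and Bnip3 to 0.705 without clusters 5 to 8, Igfbp5 to 1.07, Nnat to 1.15, Fbln5 to 1.02 and Procr to 1.02 with clusters weighted alike, Flt4 to 0.935 at 3000 UMIs per cell, and Uchl1 to 1.19, Esm1 to 0.803 and Ccna2 to 0.56 without dividing cells. Genes at least 1.5-fold higher numbered 275 at 10% mitochondrial counts, 254 without dividing cells, 394 at 3000 UMIs, 233 with clusters weighted alike, 238 without clusters 5 to 8 and 50 at 50 CPM. The lower ones numbered 474 without dividing cells, 583 at 3000 UMIs and 67 at 50 CPM. Fewer genes were tested at 50 CPM, and for the rest the cause was not tested. The arterial median was -0.49 at 10% mitochondrial counts, -0.37 without members holding another type's markers, -0.40 without clusters 5 to 8 and -0.0072 with clusters weighted alike. The dividing median was 0.49 at 10% mitochondrial counts, 0.14 without members holding another type's markers, 0.014 with clusters weighted alike and 0.46 as a mean of cells. The tip or angiogenic median was 0.14 with clusters weighted alike and 0.18 at 3000 UMIs, and that of basement membrane genes 0.022 without dividing cells, 0.049 as a mean of cells and 0.032 at 3000 UMIs. Immediate early genes had -0.36 at 10% mitochondrial counts and -0.13 at 3000 UMIs, where the venous median was -0.41 and antigen presentation 0.17. The interferon median was 0.39 without dividing cells. Shares of members were 2.98% and 2.57% at 10% mitochondrial counts and 1.87% and 1.67% without clusters 5 to 8, a setting chosen after the data were seen, and the PS-MP share was 2.39% without luteal cells. No paired analysis was possible because each group is 1 library, and no library could be left out for the same reason. At 20 CPM a gene rests on about 63 Control and 43 PS-MP UMIs.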

Other observations

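Fatty acid handling, by which capillary endothelium passes fuel to the tissue, was read from the lipid list, where the 7 genes tested included 2 higher by 1.2-fold or more and 1 lower, and the median log2 ratio was -0.09. Fabp4, a fatty acid carrier, was low at 9.57 and 20.8 CPM, a ratio of 2.17 (1.34 to 3.56), and most of it lay in the arterial-like cluster, at 68.6 and 191 CPM. Pparg, the nuclear receptor that drives it in fat cells, stood at 13.4 and 23.1 CPM, a ratio of 1.72 (1.12 to 2.66), and is a granulosa gene in these data (176 CPM in granulosa cells). Scarb1, the receptor for high-density lipoprotein, was well expressed and level, at 528 and 548 CPM, a ratio of 1.04 (0.963 to 1.12).

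The chemokine Cxcl12 stood at 455 and 426 CPM over all members, a ratio of 0.936 (0.861 to 1.02), or 0.789 (0.717 to 0.868) in clusters 0 to 4. Within cluster 3, where it was highest, it was nearly level at 1731 and 1685 CPM. In cluster 1 it was higher in the PS-MP library, at 65.9 and 205 CPM, and in the dividing-like cluster 2 lower, at 342 and 98.3 CPM. Slc2a1, the glucose transporter that leads cluster 3, was lower there in the PS-MP library, at 348 and 174 CPM, and at 88.4 and 79.8 CPM over all members, a ratio of 0.903 (0.742 to 1.10), or 0.779 (0.625 to 0.969) in clusters 0 to 4. Each of these cluster values rests on 40 to 65 members of a library, and the clusters were built on such genes, so they are descriptions.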
